A study of Homo sapiens with 2 samples.

Results

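The 10 genes described here encode alpha-tubulins (TUBA1A, TUBA1B, TUBA1C and TUBA4A) and beta-tubulins (TUBB, TUBB2A, TUBB2B, TUBB3, TUBB4B and TUBB6). They were taken by symbol from a table of 19927 genes, and each was found in 1 row. They were chosen by their counts in this same comparison, so their values are a description of these libraries. Poly(A)-selected RNA of Huh7, a long-established line from a human hepatocellular carcinoma, was sequenced from 1 library of cells kept in DMSO, the solvent control, and 1 library of cells kept in homochlorcyclizine dihydrochloride, an antihistamine, and both were harvested after 48 h. The sources used here give no dose. The comparison asks which genes differ after the compound, and with 1 library a group the conditions cannot be tested against each other.

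Microtubules are polymers of a dimer of alpha-tubulin and beta-tubulin. Human cells carry several genes, called isotypes, for each partner, whose proteins differ mainly in their acidic C-terminal tails. New tubulin is folded by prefoldin, the chaperonin CCT and the tubulin cofactors before it can form dimers. Cells also control tubulin mRNA by autoregulation, in which an excess of free dimers leads to decay of tubulin mRNAs under translation, through the factor TTC5. TUBA1A, TUBB2A, TUBB2B and TUBB3 are known for high expression in neurons, while TUBA1B, TUBA1C, TUBB, TUBB4B and TUBB6 are broadly expressed.

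The DMSO library held 38133894 counts and the homochlorcyclizine library 40791119. The hepatoma identity of both was clear from albumin (ALB) at 5244 and 5059 CPM and alpha-fetoprotein (AFP) at 11781 and 8540 CPM in the DMSO and the treated library, where CPM are counts relative to the library's total after TMM scaling. Of 12 neuronal marker genes, 3 passed a mean of 1 CPM, and STMN2, DCX and NEFL had 0 counts in both libraries. The summed level of all 12 was 19.7 CPM with DMSO and 20.1 CPM with the compound. The 12 did not include TUBB3, MAP2 or ENO2, whose ratios are given below. Of 7 fibroblast and stellate markers, 3 passed 1 CPM (summed level 33.1 and 38.1 CPM), of 5 immune markers 3 (464 and 546 CPM, mostly LYZ) and of 4 endothelial markers 1 (12.0 and 5.92 CPM). Since bulk RNA was sequenced, fewer cells of a type and less RNA per cell cannot be told apart.

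The coding sequences of alpha- and beta-tubulins open with codons for the residues on which autoregulation acts. TTC5 recognises these first residues of the new protein as it leaves the ribosome. The first 60 coding bases of the 6 beta-tubulins, from spliced GENCODE release 29 transcripts, are shown 5′ to 3′. They hold these codons and show how alike the isotypes are there. Capitals mark the first 4 codons.
TUBB: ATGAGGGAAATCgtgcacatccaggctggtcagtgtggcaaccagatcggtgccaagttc
TUBB2A: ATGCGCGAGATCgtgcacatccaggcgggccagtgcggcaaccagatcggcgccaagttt
TUBB2B: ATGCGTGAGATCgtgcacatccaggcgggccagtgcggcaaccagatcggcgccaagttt
TUBB3: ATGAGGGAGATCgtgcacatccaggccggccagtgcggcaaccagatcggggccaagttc
TUBB4B: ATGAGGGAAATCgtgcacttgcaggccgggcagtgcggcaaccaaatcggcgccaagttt
TUBB6: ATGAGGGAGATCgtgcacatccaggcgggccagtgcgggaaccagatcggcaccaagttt

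In the capitals TUBB and TUBB4B shared a spelling, as did TUBB3 and TUBB6, while TUBB2A and TUBB2B each had their own. All of these spellings encode the same residues. As given below, TUBB, TUBB4B and TUBB6 had ratios under 1, and TUBB2A, TUBB2B and TUBB3 above 1. TUBB3 and TUBB6, which share a spelling, had ratios of 2.22 and 0.725. Whether the spelling bears on the ratios was not tested.

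TUBB2A and TUBB2B, neighbours on chromosome 6, differ little at the other end of the coding sequence, which encodes the C-terminal tail. The last 90 bases before the stop codon are shown because the counts of this pair have to be told apart. Capitals mark the bases that differ between them.
TUBB2A: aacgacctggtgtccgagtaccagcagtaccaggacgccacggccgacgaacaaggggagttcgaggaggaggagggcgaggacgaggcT
TUBB2B: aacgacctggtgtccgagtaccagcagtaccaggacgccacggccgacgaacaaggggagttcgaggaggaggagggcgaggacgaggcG

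TUBB2A and TUBB2B differed at 1 of these 90 bases. Over the whole coding sequence they were 98.2% identical, with an unbroken identical run of 725 bases. TUBA1A was 97.2% identical to TUBA1B, with a longest run of 221 bases, and 95.9% identical to TUBA1C, with a longest run of 164 bases. Between the families the identity was far lower, at 54.0% for TUBA1A and TUBB. A read from a stretch that is identical in 2 genes fits both.

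The tubulin isotypes differed from each other in direction. With homochlorcyclizine, TUBA1A, TUBB2B and TUBB3 were higher by 2-fold or more, TUBA1B and TUBB4B were lower by 2-fold or more, and the other 5 isotypes stayed under 2-fold. Calls needed a 2-fold ratio and an exact 95% counting interval without 1, over genes that averaged 1 CPM or more, which all 10 members did. Of the 12353 genes measured this way, 5.81% were counted as higher and 5.10% as lower (10.9% in either direction), against 3 and 2 of the 10 tubulins. Nearest to the limit were TUBB3, inside it with a ratio of 2.22, and TUBB, outside it with 0.585. Because these counts chose the members, nothing is read from that contrast. The median log2 ratio of the 10 was -0.34 and their mean 0.14, which differ in sign, beside a median of -0.01 over all genes. Intervals cover counting error only, and spread between cultures was not measured.

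**Figure D1:**
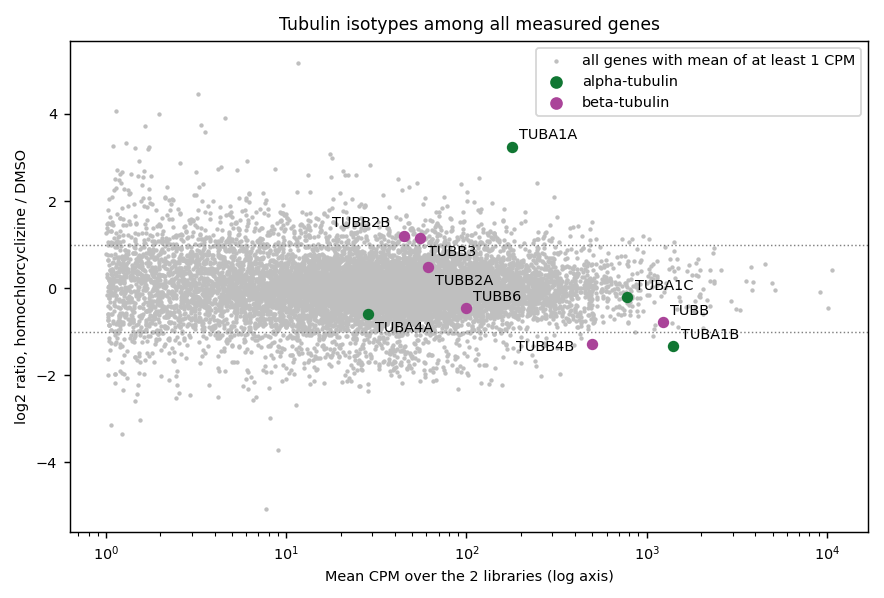
Log2 ratio of homochlorcyclizine to DMSO (vertical axis) against mean CPM over both libraries (horizontal log axis) for the 12353 measured genes in grey, with alpha-tubulins in green, beta-tubulins in purple and dotted lines at 2-fold. TUBA1A stands at 3.25, above the other genes near its level, while TUBA1B and TUBB4B lie below -1 among the most abundant genes.

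Among the alpha-tubulins, TUBA1A, an isotype of developing neurons (chromosome 12, 49184795 to 49189080, minus strand), had 1297 counts with DMSO and 13173 with homochlorcyclizine. That is 33.9 and 324 CPM, a ratio of 9.53 (9.00 to 10.1), and only 10 of the 12353 genes had a higher ratio. Per gene length it went from 18.0 to 171 FPKM, from a scarce isotype in the control library to the fifth most abundant of the 10.

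TUBA1B, the most abundant alpha-tubulin of both libraries (chromosome 12, 49127782 to 49131395, minus strand), had 77047 and 32434 counts. Its level was 2016 CPM with DMSO and 797 CPM with homochlorcyclizine, a ratio of 0.395 (0.390 to 0.400). By FPKM it lay 68.9-fold above TUBA1A with DMSO and 2.86-fold above it with the compound, so it remained the leading alpha-tubulin.

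TUBA1C, a further ubiquitous alpha isotype (chromosome 12, 49227926 to 49274600, plus strand), had 32031 and 29470 counts. At 838 and 724 CPM its ratio was 0.864 (0.850 to 0.877), the nearest to 1 of all 10 members. TUBA4A, whose gene lies apart from the others on chromosome 2 (219249710 to 219254740), had 1304 and 914 counts. Its 34.1 and 22.5 CPM gave a ratio of 0.658 (0.604 to 0.717). TUBA1A and TUBA4A were thus near each other per gene length in the DMSO library, at 18.0 and 14.3 FPKM, and far apart in the treated library, at 171 and 9.35 FPKM.

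TUBA1B, TUBA1A and TUBA1C lie side by side on chromosome 12, with 53400 bases between the first pair of RefSeq gene spans and 38846 between the second, and had ratios of 0.395, 9.53 and 0.864. The protein-coding gene before TUBA1B in the table, LMBR1L, a membrane protein gene 16935 bases away, was 2.18-fold higher (1.98 to 2.40). On the other side, PRPH, the gene of the neuronal filament protein peripherin, 20547 bases beyond TUBA1C, had 2 counts with DMSO and 13 with the compound and was under 1 CPM in both libraries. TROAP, a gene of spindle assembly, followed with a ratio of 0.289 (0.263 to 0.316). Neighbours were named for their position, after their values had been seen.

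**Figure D2:**
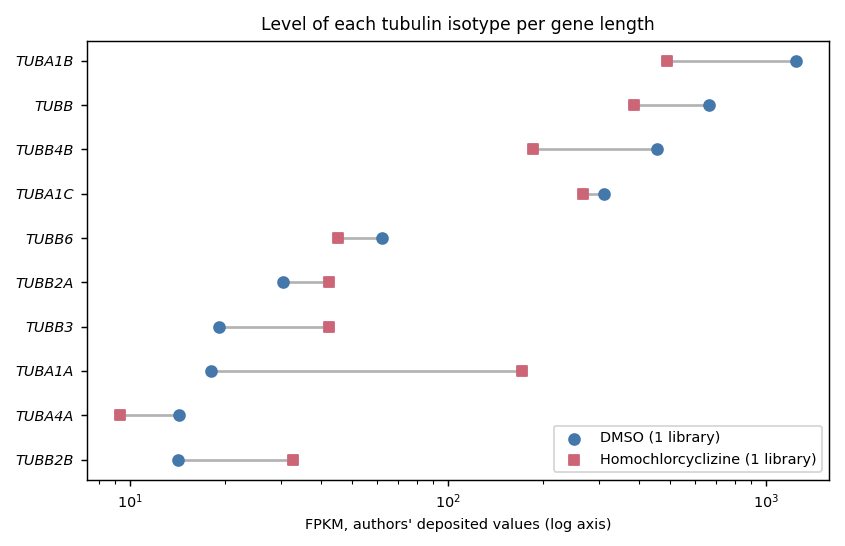
Deposited FPKM of each isotype (horizontal log axis) in the DMSO library (blue circles) and the homochlorcyclizine library (red squares), 1 library each, ordered by the DMSO level. TUBA1A moves from 18.0 to 171 FPKM and passes 3 isotypes that lie above it in the control library, and the 4 most abundant isotypes all lie lower with the compound.

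Among the beta-tubulins, TUBB, the class I isotype of most cells (chromosome 6, 30720352 to 30725422), was the most abundant, with 59212 and 36915 counts. Its level was 1550 CPM with DMSO and 907 CPM with homochlorcyclizine, a ratio of 0.585 (0.578 to 0.593), under the 2-fold rule. TUBB4B, the class IVb isotype that is also part of cilia (chromosome 9, 137241287 to 137243707), had 27035 and 11815 counts. Its 708 and 290 CPM gave a ratio of 0.410 (0.401 to 0.419), close to that of TUBA1B. TUBB6, the class V isotype (chromosome 18, 12307669 to 12329826), had 4388 and 3390 counts, 115 and 83.3 CPM, and a ratio of 0.725 (0.693 to 0.759). The 3 beta isotypes with the highest FPKM in the DMSO library were therefore the 3 that were lower.

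TUBB3, the class III isotype widely used as a neuronal marker (chromosome 16, 89921925 to 89936097), had 1316 counts with DMSO and 3116 with homochlorcyclizine. At 34.4 and 76.5 CPM it was 2.22-fold higher (2.08 to 2.37). TUBB2B, a class II isotype (chromosome 6, 3224277 to 3227653), had 1042 and 2556 counts, 27.3 and 62.8 CPM, and was 2.30-fold higher (2.14 to 2.48). Its near-identical neighbour TUBB2A (chromosome 6, 3153666 to 3157544) had 1940 and 2898 counts, 50.8 and 71.2 CPM, and a ratio of 1.40 (1.32 to 1.49), under 2-fold. The 3 scarce beta isotypes were all above a ratio of 1, and together they had 112 CPM with DMSO and 211 CPM with the compound.

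The 2 class II genes lie 66733 bases apart on chromosome 6, and of their protein-coding neighbours in the table BPHL, 88 bases from TUBB2A, had a ratio of 0.758 (0.697 to 0.823) and PSMG4, 26751 bases from TUBB2B, had 0.816 (0.661 to 1.01). TUBB2B took 34.9% of the summed counts of this pair with DMSO (33.2 to 36.7) and 46.9% with homochlorcyclizine (45.5 to 48.2).

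**Figure D3:**
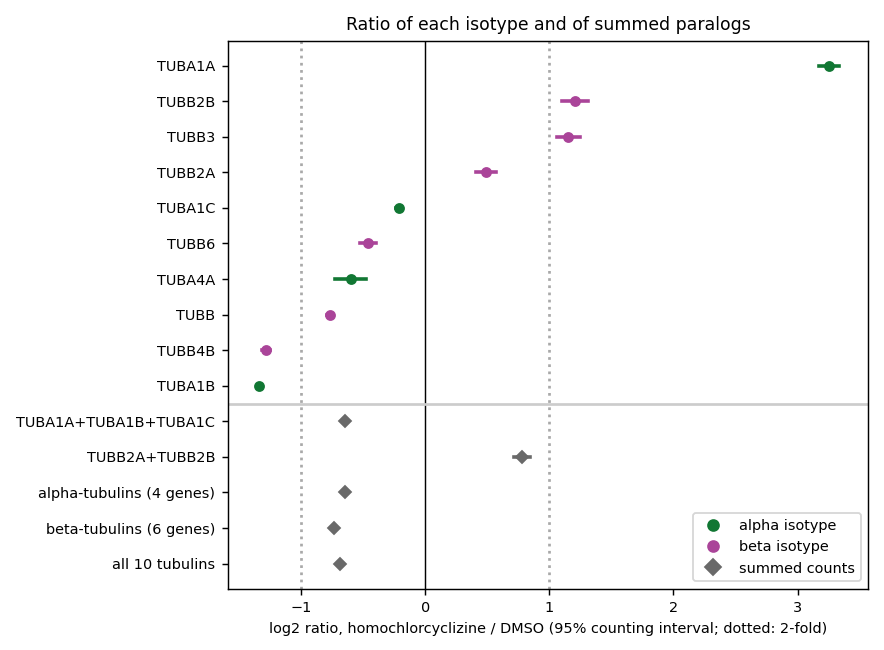
Log2 ratio of homochlorcyclizine to DMSO with 95% counting intervals for each alpha (green) and beta (purple) isotype and, below the grey line, for summed counts (grey diamonds), with dotted lines at 2-fold. TUBA1A, TUBB2B and TUBB3 lie beyond 2-fold on the right, TUBA1B and TUBB4B on the left, and the summed alpha and beta counts both lie between 0 and -1.

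Summing paralogs makes the split of reads between the summed genes irrelevant, though some windows are also shared with genes outside the sums, such as TUBAP2 and TUBB2BP1. TUBA1A, TUBA1B and TUBA1C together had 2889 CPM with DMSO and 1844 CPM with homochlorcyclizine, a ratio of 0.638 (0.633 to 0.644), so the sum was lower although TUBA1A was higher. TUBB2A and TUBB2B together had 78.0 and 134 CPM, 1.72-fold higher (1.64 to 1.80). With these 2 sums in place of their 5 members, 1 of 7 rows passed 2-fold upward (TUBB3) and 1 downward (TUBB4B). Both single-isotype counts therefore hold only with the paralogs kept apart. A sum follows its most abundant members however reads are split, so it does not show how well reads were assigned.

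How much of each transcript could be told apart was measured on GENCODE release 29 transcripts, as the share of 100-base windows found in no other gene. It was 81.7% for TUBA1A, 62.8% for TUBA1B and 88.5% for TUBA1C, and 43.6% and 53.8% for TUBB2A and TUBB2B. TUBA4A, TUBB, TUBB4B and TUBB6 were between 94.9% and 100% unique. TUBB3 was 11.0% unique, because 1487 of its 1670 windows are shared with AC092143.1, a locus of GENCODE that overlaps it on the same strand, and 5.15% of its windows were found in another member. Of the 1816 windows of TUBA1A, 282 also occur in TUBA1B and 127 in TUBA1C. How the authors' counting treated reads that fit several genes is not stated in what was used here, and its part in the ratios was not tested.

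The 4 alpha-tubulins had 2923 CPM with DMSO and 1867 CPM with homochlorcyclizine, a ratio of 0.639 (0.633 to 0.645). The 6 beta-tubulins had 2484 and 1491 CPM, a ratio of 0.600 (0.594 to 0.606). Together the 10 genes took 0.542% of the DMSO library and 0.335% of the treated library by counts. Without TUBA1A the alpha sum would have had a ratio of 0.534 (0.529 to 0.539). The beta sum still holds TUBB2A, TUBB2B and TUBB3, which were above a ratio of 1. TUBB and TUBB4B alone had a summed ratio of 0.530 (0.524 to 0.536), near that of the alpha sum without TUBA1A.

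Per gene length the balance of the partners was nearly the same in both libraries. The summed FPKM of the alpha-tubulins was 1.275 times that of the beta-tubulins with DMSO (1583 against 1242 FPKM) and 1.275 times with homochlorcyclizine (935 against 734 FPKM). Over raw counts, which weight long transcripts more, the alpha to beta ratio was 1.18 (1.17 to 1.19) with DMSO and 1.25 (1.24 to 1.27) with the compound. FPKM, fragments scaled to gene length and library size, are the authors' values and are the scale on which isotypes can be compared with each other.

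The order of the isotypes by FPKM in the DMSO library was TUBA1B (1242), TUBB (662), TUBB4B (454), TUBA1C (309), TUBB6 (62.3), TUBB2A (30.2), TUBB3 (19.1), TUBA1A (18.0), TUBA4A (14.3) and TUBB2B (14.2). The counting intervals of TUBB3 and TUBA1A overlapped, as did those of TUBA4A and TUBB2B. With homochlorcyclizine the order was TUBA1B (489), TUBB (386), TUBA1C (266), TUBB4B (185), TUBA1A (171), TUBB6 (45.0), TUBB3 (42.25), TUBB2A (42.24), TUBB2B (32.6) and TUBA4A (9.35). There TUBB6, TUBB3 and TUBB2A overlapped with their neighbours in the order. The range from highest to lowest isotype narrowed from 87.3-fold to 52.3-fold over all 10, and from 46.6-fold to 11.8-fold within the beta-tubulins.

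**Figure D4:**
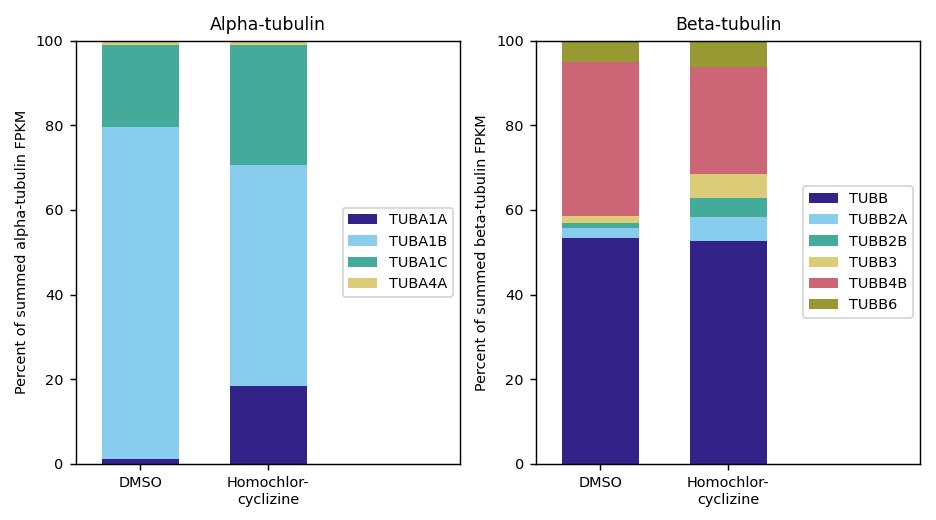
Percent of the summed FPKM of the alpha-tubulins (left) and of the beta-tubulins (right) contributed by each isotype in the DMSO and the homochlorcyclizine library, 1 library per bar. TUBA1A widens from 1.14% to 18.3% of alpha-tubulin, TUBA1B narrows from 78.4% to 52.3%, and TUBB stays near 53% of beta-tubulin.

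By share of alpha-tubulin FPKM, TUBA1B went from 78.4% to 52.3%, TUBA1C from 19.5% to 28.4% and TUBA1A from 1.14% to 18.3%. Over raw counts the share of TUBA1A was 1.16% (1.10 to 1.23, exact Clopper-Pearson interval) with DMSO and 17.3% (17.1 to 17.6) with the compound. TUBA4A was at 0.901% and 1.00%.

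By share of beta-tubulin FPKM, TUBB was at 53.3% and 52.6%, TUBB4B at 36.5% and 25.3% and TUBB6 at 5.02% and 6.14%. TUBB2A went from 2.44% to 5.76%, TUBB2B from 1.14% to 4.44% and TUBB3 from 1.54% to 5.76%. The last 3 together made up 5.12% of beta-tubulin FPKM with DMSO and 16.0% with homochlorcyclizine. The composition within a library does not depend on how the libraries are scaled to each other.

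The genes whose ratio was nearest to that of TUBA1A, among 9490 other genes that averaged 10 CPM or more, were ENO2 (8.52-fold higher, 7.19 to 10.3), the neuronal enolase, TMPRSS9 (7.96-fold, 6.77 to 9.53), a membrane serine protease, and IGFBP1 (7.14-fold, 6.31 to 8.16), a binding protein of insulin-like growth factors. The likeness is of 1 ratio over 2 libraries.

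Of 14 further tubulin genes, 9 passed 1 CPM, of which 1 passed 2-fold downward and none upward. For this list and those below, the shares over all 12353 measured genes were 5.81% higher and 5.10% lower by 2-fold. A ratio above 1 was seen in 48.9% of all measured genes. The lower gene was TUBG1, the gamma-tubulin that nucleates microtubules, at 54.1 against 123 CPM (ratio 0.440, 0.418 to 0.463). The delta-tubulin gene TUBD1, of centrioles, had a ratio of 0.688 (0.608 to 0.778). The 10 alpha- and beta-tubulin rows among the 14 summed to 14.4 CPM with DMSO and 11.8 CPM with the compound, so they add little to the totals above, and TUBA3C and TUBB8 had 0 counts in both libraries (up to 0.0785 CPM with DMSO and 0.0737 CPM with the compound at 3 counts).

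Of 13 genes of the gamma-tubulin ring complex and its docking proteins, which start new microtubules at the centrosome, 1 passed 2-fold downward and none upward. In 11 of them the ratio was under 1, where 48.9% of all measured genes were above 1. The list's median was -0.49 on the log2 scale. TUBGCP5, a core subunit, was at 18.9 against 38.4 CPM (ratio 0.493, 0.451 to 0.538). MZT1, a small subunit, had a ratio of 0.517 (0.476 to 0.561).

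Of 15 genes of the chaperonin CCT, prefoldin and a CCT cofactor, which fold new tubulin and actin, no gene was past 2-fold. In 14 the ratio was under 1, where 48.9% of all measured genes were above 1. The list's median was -0.48 on the log2 scale. The lowest were VBP1, a prefoldin subunit, at 0.581 (0.552 to 0.611), and CCT6A, a chaperonin subunit, at 0.584 (0.573 to 0.595). The list's summed level was 4912 CPM with DMSO and 3270 CPM with the compound.

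The cofactors that join alpha- to beta-tubulin after CCT, with the autoregulation genes, were nearer to 1. Of 9, no gene was past 2-fold, 4 had ratios above 1 and 5 under it, and the list's median was -0.03 on the log2 scale. TBCA, which holds beta-tubulin, had a ratio of 0.843 (0.806 to 0.882), TBCB, which holds alpha-tubulin, 0.936 (0.886 to 0.990), and TBCD, of the assembly complex, 0.739 (0.697 to 0.783). TBCEL, a relative of cofactor E that destabilises tubulin, had 1.33 (1.24 to 1.42). TTC5, the autoregulation factor, had 24.2 CPM with DMSO and 21.9 CPM with the compound, and its ratio was 0.906 (0.826 to 0.995).

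Of 29 microtubule-associated and plus-end protein genes, 23 passed 1 CPM, of which 2 passed 2-fold upward and 3 downward. The list's median was 0.07 on the log2 scale. The largest differences were in the mitotic spindle proteins TPX2 (110 against 378 CPM, ratio 0.291, 0.281 to 0.301) and PRC1 (55.4 against 170 CPM, ratio 0.326, 0.310 to 0.342). The remaining 3 that were counted are named for completeness, after their values were seen. MAP1B and MAP2 were 3.01-fold (2.84 to 3.19) and 2.36-fold (1.81 to 3.15) higher, and MAP1A had a ratio of 0.457 (0.339 to 0.603). STMN1, which binds free tubulin dimers, had a ratio of 0.574 (0.562 to 0.587), MAP4, the main lattice-binding protein outside neurons, 1.40 (1.37 to 1.43), the polymerase CKAP5 0.654 (0.630 to 0.678), and the plus-end protein MAPRE1 0.743 (0.726 to 0.761). MAP9, DCX, DCLK1, STMN2 and STMN4 had 0 counts in both libraries.

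Of 19 tubulin modification enzyme genes, 16 passed 1 CPM, of which 1 passed 2-fold upward and 1 downward. The list's median was 0.08 on the log2 scale. VASH2, which removes the C-terminal tyrosine of alpha-tubulin, was at 17.2 against 8.03 CPM (2.14-fold, 1.87 to 2.46). TTLL12, a relative of the tubulin tyrosine ligases, was at 78.3 against 159 CPM (ratio 0.493, 0.472 to 0.514). TTL, which restores that tyrosine, had a ratio of 1.01 (0.957 to 1.06), and HDAC6, a tubulin deacetylase, 1.06 (1.02 to 1.10). SIRT2, a further deacetylase of tubulin, named after its values were seen, was at 61.1 against 31.8 CPM (ratio 1.92, 1.80 to 2.06), under 2-fold. The acetylase gene ATAT1 had 5 and 10 counts and was under 1 CPM.

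Of 7 severing enzyme genes, all with ratios under 1, 2 passed 2-fold downward, and the list's median was -0.58 on the log2 scale. Over all measured genes, 5.10% were counted as lower and 48.9% had a ratio above 1. KATNAL2, a katanin relative, was at 1.13 against 3.59 CPM (ratio 0.320, 0.221 to 0.443) and FIGNL1, of the fidgetin family, at 14.4 against 32.4 CPM (ratio 0.444, 0.401 to 0.489). KATNA1, the katanin catalytic subunit, had 0.505 (0.446 to 0.570) and SPAST, spastin, 0.967 (0.909 to 1.03).

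**Figure D5:**
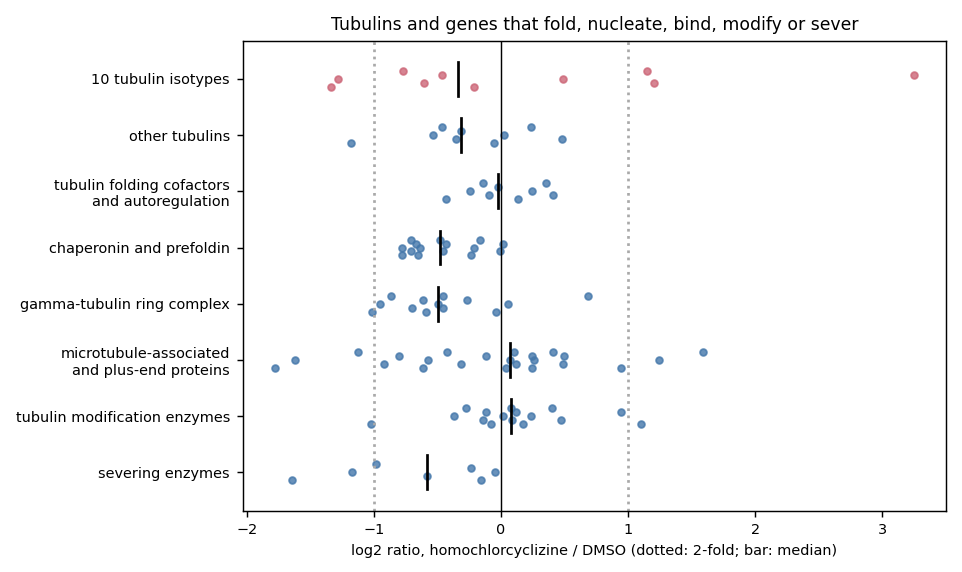
Log2 ratio of homochlorcyclizine to DMSO for the 10 tubulin isotypes (red) and for the genes of 7 lists of tubulin and microtubule proteins that averaged 1 CPM or more (blue), with black bars at each median and dotted lines at 2-fold. The isotypes span from -1.34 to 3.25, with TUBA1A at the upper end and TUBB2B next at 1.20. Because these counts chose the members, nothing is read from the width of that span beside the lists. The chaperonin and prefoldin genes stay within 2-fold.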

How the data were processed

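Both libraries are poly(A)-selected RNA-seq of Huh7 cells. The authors deposited raw counts of both libraries in 1 table by gene, and FPKM values in a table for each library. Columns were tied to samples by the labels' descriptions. Per the submitters' processing notes the build was hg38. Not given in the sources used here were the aligner, counter, strand setting and annotation. The gene lengths implied by the deposited FPKM were whole numbers, from 1563 bases for TUBB4B to 2718 bases for TUBA1C.

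Library sizes were scaled with TMM (edgeR 4.0.16, R 4.3.3). Ratios used a prior count of 1, with exact 95% Clopper-Pearson intervals conditional on the summed count (Python 3.11.15, scipy 1.17.1). Repeat molecules from PCR are not told apart, so intervals and floors (3 counts) cover counting error only. Alternatives were library totals, DESeq2 1.42.0 size factors, upper-quartile factors, prior counts of 0 and 5, the deposited FPKM, level filters, a 1.5-fold rule and summed paralogs.

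All 10 members were named whatever their values. From each list came fixed names and the 2 genes with the largest absolute log2 ratio. The members and lists were chosen with earlier results of these data known. Gene positions are RefSeq (GRCh38.p14, the assembly of hg38), matched by symbol for all 10 members. Coding sequences and 100-base windows are from the longest principal GENCODE transcript of each member. Protein sequences were not used here, and coding sequences of the alpha-tubulins are not reported here.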

Additional observations from a re-analysis of the deposited data

How the results depend on the processing

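All 60 values of single isotypes under the other scalings, prior counts and the deposited FPKM kept their direction, and the largest move was 1.02-fold. A scaling shifts the ratios of all genes alike, so little movement was possible. These settings do not bear on how reads were assigned among paralogs. With upper-quartile factors the summed ratios were 0.652 for TUBA1A, TUBA1B and TUBA1C, 0.652 for alpha-tubulin, 0.613 for beta-tubulin and 0.634 for all 10. Summed as FPKM they were 0.590, 0.591, 0.591 and 0.591, since short transcripts then weigh more. By FPKM the share of TUBA1A was 18.3% with homochlorcyclizine, and the alpha to beta ratio was 1.275 with DMSO and 1.275 with homochlorcyclizine. A 1.5-fold rule counted 4 isotypes as lower, against 2 at 2-fold. Summed paralogs gave 1 higher and 1 lower row, against 3 and 2, since the sums of TUBA1A, TUBA1B and TUBA1C and of TUBB2A and TUBB2B both lie within 2-fold. The other settings left both counts as they were. No paired analysis was possible because each group has 1 library. Depth does not limit the 10 isotypes, each with 914 counts or more in both libraries, but the spread between cultures was not measured.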
